A study of Homo sapiens with 12 samples.

Results

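Venetoclax-resistant OCI-LY1R lymphoma cells treated with decitabine were set against untreated parental OCI-LY1 cells, to see how close the treated resistant cells lay to the line they came from. The comparison takes 6 of the 12 RNA libraries of the study. The resistant decitabine group has 3 libraries, from OCI-LY1R cells given 1 µM decitabine for 3 days. The parental vehicle group has 3 libraries, from OCI-LY1 cells given the solvent DMSO for 3 days. OCI-LY1 is an established line of human diffuse large B-cell lymphoma, and OCI-LY1R was derived from it by raising the venetoclax dose stepwise to 1 µM. OCI-LY1R is thus 1 selected population, and selection and decitabine both separate the 2 groups. The other 6 libraries were used only to place values: 3 of the resistant vehicle group (OCI-LY1R with DMSO) and 3 of the parental decitabine group (OCI-LY1 with 1 µM decitabine). All groups are of polyadenylated RNA, and none of the other 6 libraries entered the comparison.

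Venetoclax blocks BCL2, the protein that holds back the mitochondrial death programme in many lymphomas. Cells escape it by other routes, among them more of the related proteins MCL1 and BCL-xL. Decitabine is a cytidine analogue that dividing cells phosphorylate and build into DNA, where it traps the DNA methyltransferases, so that methylation at CG pairs is lost over cell divisions and silenced genes can be transcribed.

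Values are TPM, transcript levels per length that the authors scaled to one common sum in each library. TPM keep no library size, so the depth is unknown and no counting interval is given. No source says that the 3 libraries of a group came from separate cultures, so a p-value measures only the spread between these libraries, which may be technical. In bulk RNA, fewer cells with a transcript and less transcript per cell cannot be told apart. Most libraries carry their signal largely on features that lie opposite genes: features of class antisense took 35.4 to 49.5% of the TPM in 11 libraries and 0.309% in parental decitabine replicate 3. ACTB, the gene of beta-actin, was listed at 8.14 to 20.4 TPM in the 11 libraries and at 6353 TPM in that replicate. The value of a gene that overlaps another on the other strand may therefore hold reads of its partner, which was not tested, and an overlap of 10% or more of a gene's exon length is given where the gene is described. Genes without any such overlap also differed in that replicate. RPL7 was at 0 to 2.29 TPM in the 11 libraries and at 614 TPM in it, SPIB at 0 to 2.80 and 167 TPM, and NDUFA13 at 2.40 to 16.9 and 322 TPM. H4C9 went the other way, at 17.9 to 262 TPM in the 11 libraries and 3.32 TPM in that replicate. A level, of a few TPM or far above that, may thus not be that of the gene's mRNA, which was not tested. Parental decitabine replicate 3 is given apart or left out. The summed TPM of 6 B-cell markers was 117 to 152 in resistant decitabine and 20.95 to 116 in parental vehicle libraries, where MS4A1 was listed at 0. Of the markers of other cells, CD3D, CD3E, CD2 and TRAC of T cells, GNLY, GZMB and KLRF1 of NK cells, CD14, ITGAM and S100A8 of myeloid cells, COL1A1 of fibroblasts and KRT18 and CDH1 of epithelial cells were at 0 in all 6 libraries. The sum of 6 epithelial markers was 1.77 to 23.4 TPM in resistant decitabine and 0 to 0.561 TPM in parental vehicle libraries, and its part in the results was not tested. Sums were 0.158 to 2.34 TPM in resistant decitabine and 0.376 to 1.03 TPM in parental vehicle libraries for 10 T-cell markers, and 1.39 to 4.78 TPM in resistant decitabine and 0 to 3.18 TPM in parental vehicle libraries for 9 myeloid markers.

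Over all features, treated resistant libraries lay farther from the parental vehicle libraries than untreated resistant libraries did. The root mean square difference on the log2(TPM + 1) scale, over 8505 features, had a median of 1.63 between resistant decitabine and parental vehicle libraries (range 1.59 to 1.67, 9 pairs). It had a median of 1.51 between resistant vehicle and parental vehicle libraries (1.46 to 1.55, 9 pairs). Every treated resistant library was thus farther from every parental vehicle library than any untreated resistant library was. The medians within groups were smaller. They were 1.39 within resistant decitabine (1.38 to 1.42), 1.46 within resistant vehicle (1.448 to 1.509) and 1.37 within parental vehicle (1.307 to 1.373). The range within resistant vehicle overlapped that between resistant vehicle and parental vehicle. The treated resistant libraries lay nearest to parental decitabine replicates 1 and 2, at a median of 1.47 (1.448 to 1.503, 6 pairs), against 1.59 (1.58 to 1.66, 9 pairs) to the resistant vehicle libraries from the same line. The pairs share libraries, so these values are given without a test.

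**Figure D1:**
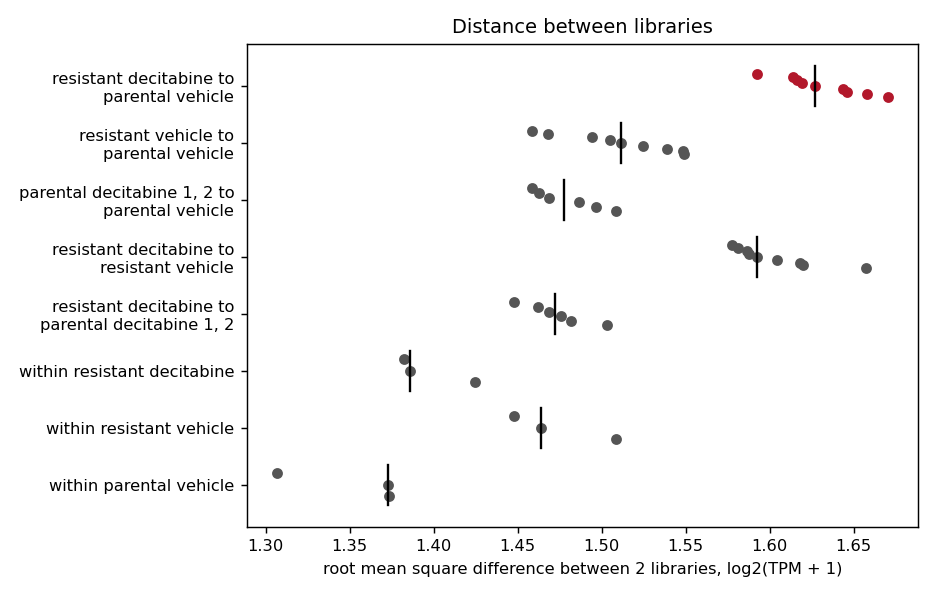
Root mean square difference on the log2(TPM + 1) scale (x axis) for each pair of libraries, by the groups they come from (rows). Points are pairs and bars are medians. The 9 pairs of resistant decitabine with parental vehicle lie between 1.59 and 1.67, above all 9 pairs of resistant vehicle with parental vehicle.

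Of 8663 features that averaged at least 1 TPM over the 6 libraries, 1177 (13.6%) differed between resistant decitabine and parental vehicle (limma, Benjamini-Hochberg adjusted p under 0.05). Of these, 918 (10.6% of the features tested) were higher and 259 (2.99%) lower in resistant decitabine. At an adjusted p under 0.01 the count was 292 (3.37%). The changes were often large: 690 of the higher and 173 of the lower features differed at least 2-fold on the log2(TPM + 1) scale. The groups did not overlap for any of the 1177 features, against 3253 (37.6%) of all those tested. A call with 3 libraries per group favours separated groups, so this adds no support to the calls. The median log2 difference over all features tested was 0.32, and the split depends on how that shift is treated. With median-ratio scaling, which left a median of 0.09, 616 features were higher and 482 lower, and with quantile scaling, which left -0.03, 497 were higher and 474 lower. Small rises should be read against that shift. Features of at least 1 TPM numbered 8731 to 9038 in resistant decitabine libraries and 7277 to 7327 in parental vehicle libraries. They numbered 7078 to 7348 in resistant vehicle libraries, and 8235 and 8187 in parental decitabine replicates 1 and 2.

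Fewer libraries gave fewer calls. Leaving out resistant decitabine a, b or c left 760, 797 or 783 called features, and leaving out parental vehicle 1, 2 or 3 left 605, 540 or 661, and no called feature turned direction. A range of adjusted p given beside a gene covers these fits and the other alternatives. Of the 1177 features, 345 (29.3%) had a library listed at 0, and in 209 a whole group was at 0: parental vehicle in 166 and resistant decitabine in 43. Of those 209, 105 had resistant vehicle libraries both at 0 and above it. Values that switch in this way within a group are given for each library below. An exact 0 can be a failed estimate, so a group at 0 throughout gets no fold. A feature that averaged under 1 TPM in 1 group passed the filter only through the other, so its call could go 1 way only. Among features described below this holds for H2BC12, KLRK1, MCL1, TNFRSF10B, SAMHD1, DTYMK, FOXO1, SPIB and RPL7, called higher. Also called higher, and limited in the same way, were PICSAR, MID1IP1-AS1, RFX5-AS1, ZC3HC1, RINT1, TMEM205, USP20, PCDH9-AS1, DAZAP2 and AC027277.1. Among those called lower it holds for DCK, ISG20, GRINA, WASHC5, GDE1, CDR1, KDM2B-DT and UTS2B. Counts of called list members are limited in the same way.

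**Figure D2:**
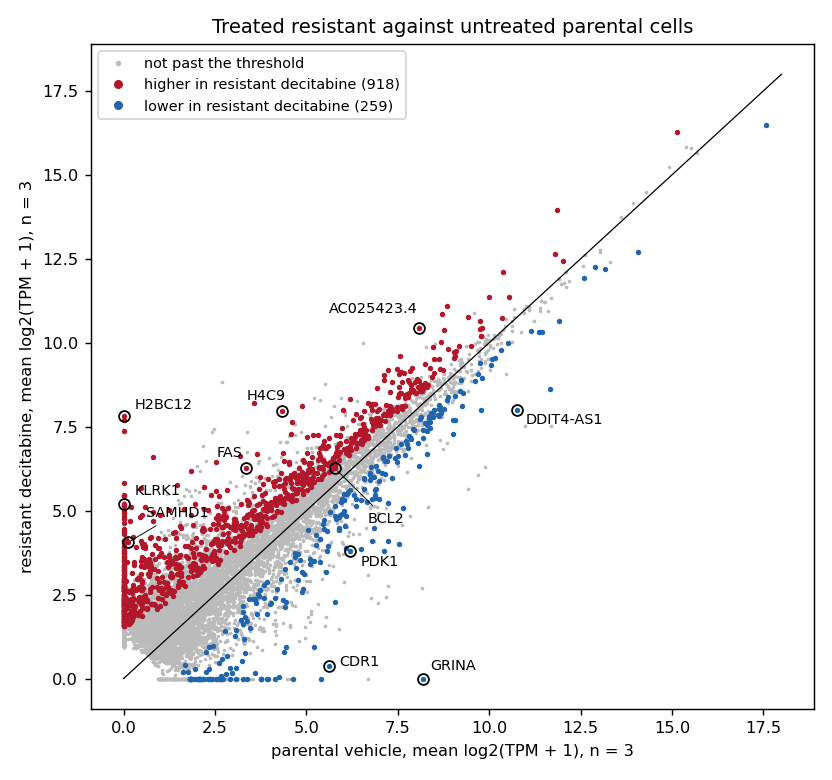
Mean log2(TPM + 1) of each of the 8663 features in parental vehicle (x axis) and resistant decitabine (y axis), 3 libraries each. Red points are the 918 features higher and blue points the 259 lower in resistant decitabine, grey points did not pass the test, the line marks equality and rings mark named features. H2BC12 and KLRK1 lie on the left edge, at 0 in parental vehicle, and GRINA on the lower edge, at 0 in resistant decitabine.

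The largest fitted rise of a feature with a gene symbol was in a core histone gene. Histones package DNA into nucleosomes, and the mRNAs of the replication-dependent histone genes normally end in a stem-loop and not in a poly(A) tail. H2BC12, which encodes histone H2B, was listed at 227, 253 and 195 TPM in resistant decitabine libraries, against 0 in the 3 parental vehicle libraries (limma, adjusted p = 4.89e-05). It was also at 0 in the 3 resistant vehicle libraries, and at 43.6 and 0 TPM in parental decitabine replicates 1 and 2. H2BC12 was thus high in every resistant decitabine library and at 0 in every vehicle library, while the parental decitabine libraries were mixed, with replicate 3 at 89.9 TPM.

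H4C9, a histone H4 gene that lies beside H2BC12 in the histone cluster of chromosome 6, was listed at 260, 262 and 224 TPM in resistant decitabine libraries, against 18.1, 22.1 and 17.9 TPM in parental vehicle libraries. The difference was 3.62 ± 0.14 on the log2(TPM + 1) scale (SE; limma, adjusted p = 0.000457). The resistant vehicle libraries lay between, at 50.05, 69.9 and 57.8 TPM, without overlap with either group. H2AC18, a histone H2A gene, had 30.5, 18.5 and 15.5 TPM in resistant decitabine and 5.39, 5.04 and 1.47 TPM in parental vehicle libraries (adjusted p = 0.0321, 0.0132 to 0.0898 over the alternatives run). Its call was lost with no filter, under both other scalings, and without any 1 of the resistant decitabine libraries or of parental vehicle 1 and 2, and its position was not matched in the annotation. Of 5 histone genes tested, these 3 were higher and none lower, with a median log2 difference of 2.24, beside 0.32 for all features tested, of which 10.6% were higher and 2.99% lower.

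The promoters of H2BC12 and H4C9, and of SAMHD1 described further on, are shown because decitabine acts on methylation at CG pairs and these genes were among the clearest rises. Each window runs from 250 bases before to 50 bases after a transcript start listed by RefSeq (GRCh38.p14), 5′ to 3′ on the gene's strand, with every CG in capitals. The windows are chr6:27146809-27147108 (minus strand) for H2BC12, chr6:27139032-27139331 (plus strand) for H4C9 and chr20:36951659-36951958 (minus strand) for SAMHD1. For H2BC12, with 2 listed starts, the first was taken.
H2BC12: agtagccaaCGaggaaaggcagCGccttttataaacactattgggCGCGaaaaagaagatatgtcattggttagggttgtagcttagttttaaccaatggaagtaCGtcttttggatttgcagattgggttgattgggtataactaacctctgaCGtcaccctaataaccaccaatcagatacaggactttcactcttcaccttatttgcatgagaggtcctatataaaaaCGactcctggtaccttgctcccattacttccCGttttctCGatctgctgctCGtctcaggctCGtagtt
H4C9: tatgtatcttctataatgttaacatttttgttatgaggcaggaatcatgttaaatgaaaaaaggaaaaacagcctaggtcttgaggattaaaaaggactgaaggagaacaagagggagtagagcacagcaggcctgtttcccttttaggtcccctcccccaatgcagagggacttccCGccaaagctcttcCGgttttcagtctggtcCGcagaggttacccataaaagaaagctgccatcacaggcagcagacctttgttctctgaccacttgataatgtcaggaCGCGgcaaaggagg
SAMHD1: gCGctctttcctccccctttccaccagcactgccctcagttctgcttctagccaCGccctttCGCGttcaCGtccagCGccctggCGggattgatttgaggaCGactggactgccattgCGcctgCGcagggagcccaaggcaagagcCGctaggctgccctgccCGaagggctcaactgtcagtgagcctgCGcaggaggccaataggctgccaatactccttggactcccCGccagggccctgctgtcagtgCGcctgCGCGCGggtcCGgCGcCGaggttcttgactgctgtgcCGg
The windows hold 11 CG pairs for H2BC12, 5 for H4C9 and 22 for SAMHD1. Over the first listed start of 27305 gene symbols, 95.8% of such windows hold at least 1 CG, with a median of 14. The median was 26 for the 392 features called higher that matched a window, 22 for the 90 called lower, and 26 for the 4279 of all tested features that matched. The motif CCAAT, searched on both strands, is found 6 times in the H2BC12 window, 1 time in that of H4C9 and 2 times in that of SAMHD1, and in 35.7% of all windows. TATAAA, also on both strands, is found 3 times for H2BC12 and is absent from the other two windows, and 11.95% of all windows hold it. DNA methylation was not measured.

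Several features listed at 0 in parental vehicle libraries had clear values in the treated resistant cells. KLRK1, which encodes NKG2D, an activating receptor best known from NK and T cells, was listed at 27.6, 37.4 and 44.2 TPM in resistant decitabine libraries, against 0 in the parental vehicle libraries (adjusted p = 0.000626). It was at 0 in the 3 resistant vehicle libraries and at 33.7 and 38.3 TPM in parental decitabine replicates 1 and 2. KLRK1 was therefore high in every decitabine library of both lines, replicate 3 included at 28.6 TPM, and at 0 in every vehicle library. NK-cell markers did not rise with it: their summed TPM was 0.170 to 5.72 in resistant decitabine and 1.52 to 4.99 in parental vehicle libraries. PICSAR, a long noncoding RNA, was listed at 45.3, 39.9 and 44.3 TPM in resistant decitabine libraries, against 0 in the parental vehicle libraries (adjusted p = 0.000436). Its resistant vehicle values were 0, 0 and 0.952 TPM, and parental decitabine replicates 1 and 2 had 12.2 and 10.9 TPM. MID1IP1-AS1, an antisense RNA with 40.2% of its exon length opposite MID1IP1, was at 43.6, 40.1 and 24.4 TPM in resistant decitabine libraries, against 0 in parental vehicle libraries (adjusted p = 0.000815). It was at 58.4 and 47.2 TPM in parental decitabine replicates 1 and 2 and at 1.44 TPM or 0 in the resistant vehicle libraries. RFX5-AS1, an antisense RNA with 15% of its exon length opposite RFX5, the gene of an MHC class II regulator, was at 41.9, 34.1 and 52.7 TPM in resistant decitabine libraries and at 0 in every parental vehicle and resistant vehicle library (adjusted p = 0.00059). ZC3HC1, which encodes a zinc finger protein of the nuclear envelope, showed the same layout, at 18.2, 22.6 and 21.2 TPM in resistant decitabine libraries and at 0 in both vehicle groups (adjusted p = 0.000685). ZC3HC1 was at 0 in parental decitabine replicates 1 and 2 as well. The calls of these 5 features held under every alternative that tested them.

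**Figure D3:**
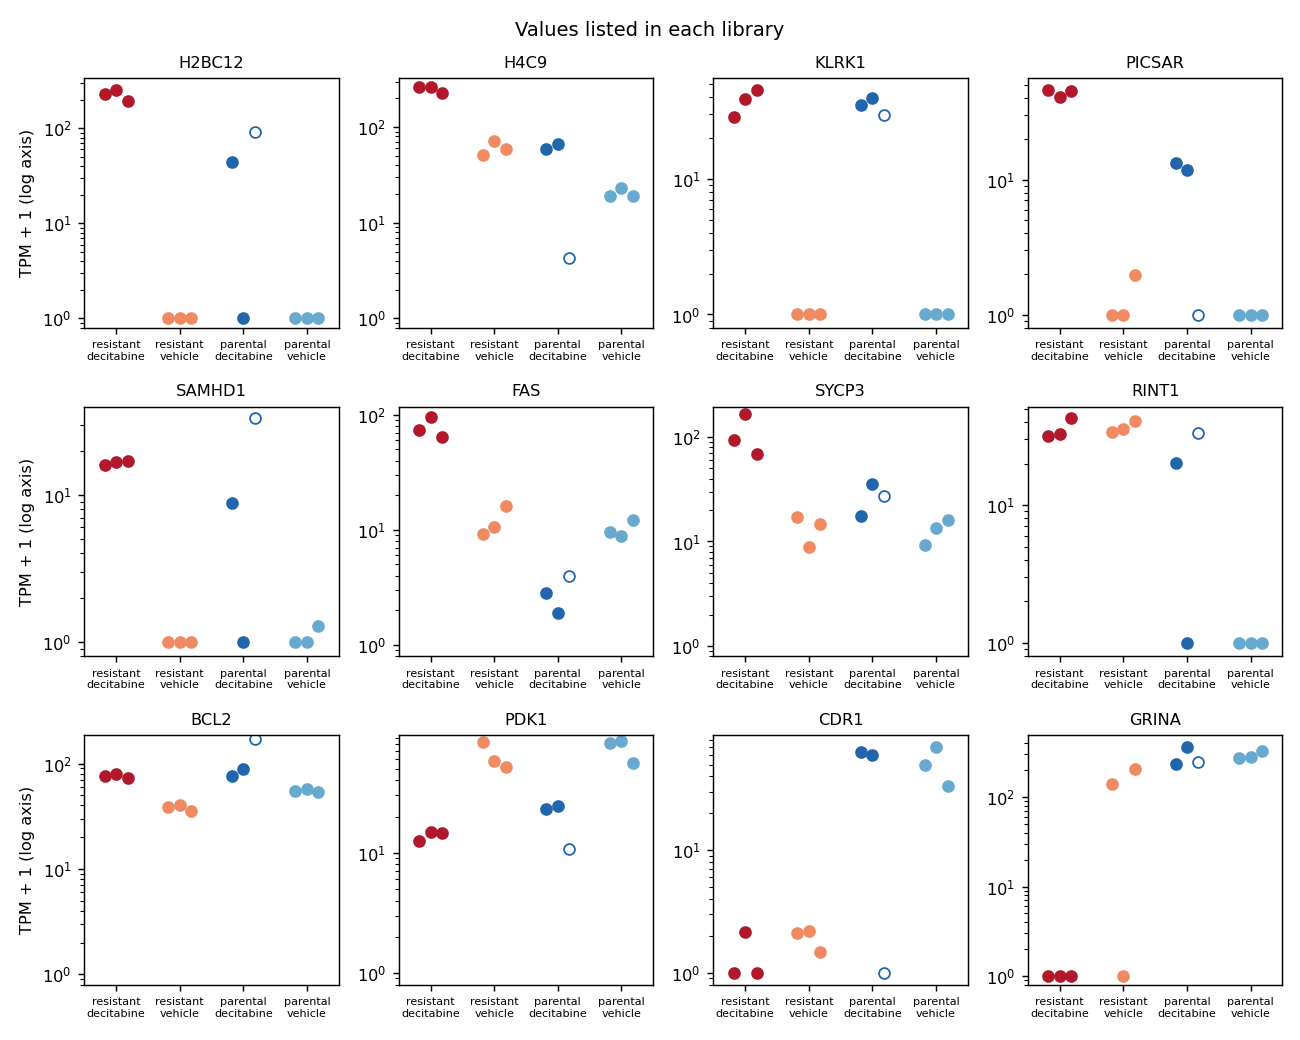
TPM + 1 (y axis, log scale) of 12 named features in the 12 libraries, by group from left to right: resistant decitabine, resistant vehicle, parental decitabine, parental vehicle. Each point is a library, and the open point is parental decitabine replicate 3. KLRK1 is at 0 TPM in all 6 vehicle libraries, RINT1 is alike in both resistant groups, and GRINA is at 0 TPM in resistant decitabine and in 1 resistant vehicle library.

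Among other large rises the resistant vehicle libraries stood differently. RINT1, which encodes a protein of vesicle transport that binds RAD50, was listed at 30.9, 32.0 and 41.7 TPM in resistant decitabine libraries, against 0 in the parental vehicle libraries (adjusted p = 0.00059). The resistant vehicle libraries had 32.8, 34.9 and 39.9 TPM, overlapping the treated ones, parental decitabine replicates 1 and 2 had 19.1 and 0 TPM and replicate 3 had 32.4 TPM, and 17.5% of the exon length of RINT1 lies opposite EFCAB10. TMEM205, a membrane protein gene with 41.4% of its exon length opposite CCDC159, was at 150, 181 and 169 TPM in resistant decitabine libraries and at 0 in parental vehicle libraries (adjusted p = 4.89e-05), and at 164, 0 and 0 TPM in the resistant vehicle libraries. Parental decitabine libraries had 185 and 232 TPM, and 81.9 TPM in replicate 3, so that TMEM205 was high in all 6 decitabine libraries and at 0 in 5 of 6 vehicle libraries. USP20, a deubiquitinase gene, was at 57.6, 33.2 and 67.3 TPM in resistant decitabine libraries, against 0.0695, 0.848 and 0.353 TPM in parental vehicle libraries, a log2 difference of 5.21 ± 0.36 (adjusted p = 0.00141, 0.0006 to 0.0605 over the alternatives, the highest with 11 libraries in the fit). Its resistant vehicle values were 46.9, 0.466 and 59.3 TPM, and its parental decitabine values were 65.8 and 0.391 TPM in replicates 1 and 2 and 16.7 TPM in replicate 3. TMEM205 thus switched between 0 and a high value within resistant vehicle, and USP20 within both resistant vehicle and parental decitabine, so the resistant vehicle group does not place them.

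Of the BCL2 family, BCL2 and MCL1 passed the test. BCL2 itself was listed at 75.8, 78.6 and 72.1 TPM in resistant decitabine libraries, against 53.8, 55.9 and 52.8 TPM in parental vehicle libraries. The log2 difference was 0.47 ± 0.11 (adjusted p = 0.0397), beside a median of 0.32 over all features. Resistant vehicle libraries were lowest, at 37.6, 39.4 and 34.5 TPM, and parental decitabine replicates 1 and 2 had 75.0 and 88.6 TPM. BCL2 thus stood above the parental vehicle level after decitabine and below it without. The call did not survive the loss of any of the 6 libraries (adjusted p 0.0614 to 0.11), and was also lost with no filter (0.113), quantile scaling (0.212) and median-ratio scaling (0.293). MCL1, the relative of BCL2 that can replace it, was at 1.99, 2.54 and 3.10 TPM in resistant decitabine libraries and at 0 in the parental vehicle libraries (adjusted p = 0.0176, 0.00718 to 0.071 over the alternatives). Its resistant vehicle values were 0.975, 1.70 and 0.277 TPM, and its call was lost with no filter and without any 1 of the parental vehicle libraries. MCL1 was at 56.3 TPM in parental decitabine replicate 3, so its level in the other libraries is low beside that replicate.

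BCL2L1, which encodes BCL-xL and has 43.0% of its exon length opposite ABALON, had 16.4, 22.5 and 20.5 TPM in resistant decitabine libraries and 3.09, 2.07 and 32.5 TPM in parental vehicle libraries (log2 difference 1.46 ± 0.92, adjusted p = 0.345, 0.0163 to 0.616 over the alternatives). Parental vehicle 3 alone set the groups to overlap, and without it the difference was 2.54 (adjusted p = 0.0163). ABALON, an antisense RNA with 74.8% of its exon length opposite BCL2L1 and chosen after its values were seen, was at 160, 175 and 183 TPM in resistant decitabine libraries, against 229, 236 and 255 TPM in parental vehicle libraries. The log2 difference was -0.47 ± 0.10 (adjusted p = 0.032), and it was lost with no filter and without any 1 library (adjusted p up to 0.0942, from 0.00568). The differences of BCL2L1, which did not pass, and of its antisense partner had opposite signs. BCL2A1, also anti-apoptotic, was under the filter, at 0, 1.32 and 0 TPM in resistant decitabine libraries and at 0 in parental vehicle libraries.

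Of 4 anti-apoptotic members of the BCL2 family tested, BCL2 and MCL1 were higher and none lower, beside 10.6% higher and 2.99% lower over all features. MCL1 passed the filter only through resistant decitabine and so could be called higher only. None of 9 pro-apoptotic members passed in limma (1 had an unadjusted p under 0.05), 4 had a positive difference, and their median was -0.15. BAX, a pore-forming effector, had 2.03, 6.61 and 5.69 TPM in resistant decitabine and 2.67, 1.19 and 0.674 TPM in parental vehicle libraries (adjusted p = 0.187). BCL2L11, which encodes the BH3-only protein BIM and has 10.9% of its exon length opposite MIR4435-2HG, had 18.9, 6.43 and 17.2 TPM in resistant decitabine and 6.59, 15.8 and 8.08 TPM in parental vehicle libraries (adjusted p = 0.619). PMAIP1, the gene of NOXA, had 1.77, 10.6 and 2.29 TPM in resistant decitabine and 4.02, 4.999 and 3.84 TPM in parental vehicle libraries (adjusted p = 0.89), and its sign depended on the library left out. The groups overlapped for each of these 3. BMF, another BH3-only gene, was at 0 in all resistant decitabine and resistant vehicle libraries and at 18, 0 and 22.6 TPM in parental vehicle libraries (adjusted p = 0.185, 0.00758 without parental vehicle 2, highest 0.37).

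The clearest change among death genes was outside the BCL2 family. FAS, the death receptor that activates caspase 8, was listed at 73.3, 95.0 and 63.1 TPM in resistant decitabine libraries, against 8.63, 7.89 and 11.1 TPM in parental vehicle libraries. They differed by 2.93 ± 0.22 on the log2 scale (adjusted p = 0.00188), and the call held under every alternative that tested it. Resistant vehicle had 8.20, 9.54 and 15.2 TPM, overlapping parental vehicle, while parental decitabine replicates 1 and 2 had 1.81 and 0.881 TPM. FAS was thus high in treated resistant cells and low in treated parental cells. FAS has 8.9% of its exon length opposite ACTA2. TNFRSF10B, a TRAIL receptor and p53 target, had 2.72, 2.53 and 2.90 TPM in resistant decitabine and 0, 0.815 and 0 TPM in parental vehicle libraries (adjusted p = 0.0406, 0.0116 to 0.138 over the alternatives), and lost its call without any 1 of the 6 libraries, with no filter, with a pseudocount of 0.1 and under both other scalings. Of 4 death receptor genes tested, these 2 were higher and none lower, beside 10.6% and 2.99% of all features. TNFRSF10B passed the filter only through resistant decitabine and so could be called higher only.

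Among genes that handle decitabine and nucleotides, SAMHD1 stood out. SAMHD1 encodes the enzyme that cleaves deoxynucleoside triphosphates, and its promoter with 22 CG pairs is printed above. It was listed at 14.997, 15.8 and 16.04 TPM in resistant decitabine libraries, against 0, 0 and 0.273 TPM in parental vehicle libraries. On the log2 scale they differed by 3.94 ± 0.25 (adjusted p = 0.00104), and the call held under every alternative that tested it. SAMHD1 was at 0 in the resistant vehicle libraries and at 7.77 and 0 TPM in parental decitabine replicates 1 and 2, and 10.3% of its exon length lies opposite TLDC2. DTYMK, the kinase that makes thymidine diphosphate, had 4.77, 3.04 and 3.06 TPM in resistant decitabine libraries and was at 0 in the 3 parental vehicle and 3 resistant vehicle libraries (adjusted p = 0.0118). DCK, the kinase that first phosphorylates decitabine, went the other way. It was at 0 in the resistant decitabine libraries, against 2.05, 3.16 and 2.51 TPM in parental vehicle libraries (adjusted p = 0.0171, 0.013 to 0.07 over the alternatives). The DCK values of resistant vehicle were 2.98, 0 and 0 TPM, its call was lost without parental vehicle 1 or 3, with no filter and with 9 or 11 libraries in the fit, and parental decitabine replicate 3 had 53.4 TPM. Of 10 genes of this list tested, SAMHD1 and DTYMK were higher and DCK lower, beside 10.6% higher and 2.99% lower over all features.

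The DNA methyltransferases gave no test. DNMT1, the maintenance enzyme that decitabine traps, was at 0.550, 0 and 0 TPM in resistant decitabine and 2.23, 0 and 1.04 TPM in parental vehicle libraries, under the filter of 1 TPM, and at 221 TPM in parental decitabine replicate 3. DNMT3B was at 0 in all 6 libraries. None of 3 tested genes of the DNA methylation machinery passed in limma (1 had an unadjusted p under 0.05).

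Of the germline genes, a class often silenced by methylation in somatic cells, only 2 were tested. Both were higher, beside 10.6% higher and 2.99% lower over all features. SYCP3, a component of the synaptonemal complex, was listed at 91.5, 166 and 68.3 TPM in resistant decitabine libraries, against 8.32, 12.4 and 15.1 TPM in parental vehicle libraries. SYCP3 thus differed by 3.02 ± 0.38 on the log2 scale (adjusted p = 0.009), and the call held under every alternative that tested it. Resistant vehicle had 16.2, 7.94 and 13.7 TPM, overlapping parental vehicle, and 14.8% of the exon length of SYCP3 lies opposite CHPT1. STAG3, a meiotic cohesin subunit with 13.6% of its exon length opposite CASTOR3, had 101, 88.7 and 109 TPM in resistant decitabine and 57.4, 60.8 and 55.1 TPM in parental vehicle libraries, a log2 difference of 0.77 ± 0.12 (adjusted p = 0.016, 0.0086 to 0.0656 over the alternatives). The STAG3 call was lost under both other scalings and without any 1 of the parental vehicle libraries. These 2 were the only tested members of a list of 30 germline genes, too few to speak for the class. Of 4 imprinted genes tested, 1 was higher and none lower, beside the same shares over all features. This was NNAT, a neuronal proteolipid gene, with 16.4, 13.8 and 14.4 TPM in resistant decitabine and 7.15, 4.85 and 4.45 TPM in parental vehicle libraries (adjusted p = 0.0218, 0.00424 to 0.0712). NNAT lost its call with no filter, under quantile scaling and without resistant decitabine a, b or c or parental vehicle 2 or 3.

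Interferon-stimulated genes, which decitabine is known to raise in other cells, could mostly not be tested. Of a list of 36 that includes nucleic acid sensing genes, only 7 averaged 1 TPM or more, so absence of a rise is not shown. Of these 7, tested in limma, none was higher past the threshold, beside 10.6% of all features. For 4 the difference was positive, and the median was 0.52, beside 0.32 for all features. ISG20, an interferon-induced exonuclease gene, was lower and the 1 with an unadjusted p under 0.05. ISG20 was listed at 0, 0.429 and 0 TPM in resistant decitabine libraries, against 9.82, 6.21 and 5.23 TPM in parental vehicle libraries (log2 difference -2.80 ± 0.35, adjusted p = 0.00852). Its resistant vehicle values were 0, 6.01 and 0 TPM, and the call held under every alternative that tested it. In parental decitabine replicate 3 ISG20 was at 141 TPM. Of 5 genes of MHC class I presentation tested, CALR was higher and PDIA3 lower, both chaperones of the loading complex, beside 10.6% higher and 2.99% lower over all features. CALR had 977, 1026 and 862 TPM in resistant decitabine and 745, 714 and 719 TPM in parental vehicle libraries (log2 difference 0.39 ± 0.09, adjusted p = 0.0402, 0.0329 to 0.498). PDIA3, with 18.9% of its exon length opposite other genes, had 199, 207 and 228 TPM in resistant decitabine and 280, 266 and 278 TPM in parental vehicle libraries (-0.38 ± 0.09, adjusted p = 0.0496, 0.00952 to 0.14). Both are small, and both calls were lost with no filter and without resistant decitabine a or b or any 1 of the parental vehicle libraries. The CALR call was also lost with 9 or 11 libraries in the fit and under median-ratio scaling, where the difference was 0.11. CALR has 9.9% of its exon length opposite AC092069.1.

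Genes of germinal-centre B-cell identity gave calls in both directions. Of 17 tested, FOXO1 and SPIB, transcription factors of B-cell development, were higher, ELL3, an elongation factor, was lower and 14 did not pass, beside 13.6% called over all features. FOXO1 had 4.95, 6.07 and 3.22 TPM in resistant decitabine and 0.384, 0.589 and 0.534 TPM in parental vehicle libraries (log2 difference 1.91 ± 0.32, adjusted p = 0.0171, 0.00457 to 0.0663). SPIB had 2.22, 1.40 and 2.80 TPM in resistant decitabine and 0, 0.374 and 0 TPM in parental vehicle libraries (1.47 ± 0.35, adjusted p = 0.046, 0.0169 to 0.188). ELL3, with 36.2% of its exon length opposite other genes, had 47.4, 40.7 and 50.4 TPM in resistant decitabine and 64.4, 70.7 and 74.9 TPM in parental vehicle libraries (-0.59 ± 0.14, adjusted p = 0.0431, 0.0152 to 0.123). All 3 calls were lost with no filter and without any 1 of the parental vehicle libraries. Quantile scaling also ended those of FOXO1 and SPIB, and median-ratio scaling and a pseudocount of 0.1 that of SPIB. Leaving out resistant decitabine a also ended those of FOXO1 and ELL3, b those of SPIB and ELL3, and c that of ELL3.

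Most transcripts of the mitochondrial genome were higher. Of 13 tested, 9 were higher and none lower, beside 10.6% and 2.99% of all features, with a median log2 difference of 1.41, beside 0.32. MT-ND2, a subunit of complex I, had 691, 397 and 705 TPM in resistant decitabine and 153, 154 and 146 TPM in parental vehicle libraries (log2 difference 1.93 ± 0.24, adjusted p = 0.00843). MT-CYB, the cytochrome b of complex III, had 477, 808 and 532 TPM in resistant decitabine and 197, 167 and 175 TPM in parental vehicle libraries (1.71 ± 0.21, adjusted p = 0.00851). Resistant vehicle libraries lay below the treated ones in both genes, at 316, 173 and 320 TPM for MT-ND2 and at 270, 142 and 228 TPM for MT-CYB. MT-ND6, encoded on the other strand of the mitochondrial genome, was listed far higher in these libraries. It had 87200, 66777 and 88637 TPM in resistant decitabine and 41363, 34909 and 33106 TPM in parental vehicle libraries (1.14 ± 0.14, adjusted p = 0.00845). Features on that minus strand took 23.7 to 31.8% of the TPM in resistant decitabine and 16.1 to 22.2% in parental vehicle libraries. They took 12.99 to 21.4% in resistant vehicle libraries and 28.3 and 29.04% in parental decitabine replicates 2 and 1. Parental decitabine replicate 3 was the reverse, with 0.440% on the minus and 32.5% on the plus strand, and MT-ND2 at 14765 TPM. The plus strand took 0.604 to 2.34% in the other libraries. Whether these values give the levels of the mitochondrial mRNAs was not tested. MT-CO1 did not pass the test, with 3580, 1283 and 1919 TPM in resistant decitabine and 2226, 2284 and 1545 TPM in parental vehicle libraries (0.06 ± 0.39, adjusted p = 0.943).

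Of 20 respiratory chain genes of the nucleus tested, 2 were higher and 1 lower, near the 10.6% and 2.99% of all features, with a median log2 difference of 0.37. CYC1, the cytochrome c1 of complex III, had 31.8, 20.8 and 26.7 TPM in resistant decitabine and 5.19, 7.41 and 9.04 TPM in parental vehicle libraries (log2 difference 1.75 ± 0.27, adjusted p = 0.0144), close to the threshold at its weakest (0.05 over the alternatives). ATP5PB, of ATP synthase, has 10.3% of its exon length opposite WDR77. It had 25.2, 24.1 and 38.2 TPM in resistant decitabine and 8.17, 13.2 and 14.7 TPM in parental vehicle libraries (limma, adjusted p = 0.0488, 0.0173 to 0.11). The ATP5PB call was lost without any 1 of the 6 libraries, with no filter, with a pseudocount of 0.1 and under both other scalings. NDUFA13, of complex I, was lower, with 2.40, 5.58 and 3.63 TPM in resistant decitabine and 15.7, 12.97 and 16.9 TPM in parental vehicle libraries (adjusted p = 0.0191, 0.00706 to 0.0672). NDUFA13 lost its call without resistant decitabine c or any 1 of the parental vehicle libraries.

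Among metabolic genes the clearest fall was in PDK1, a kinase that inhibits pyruvate dehydrogenase and a known target of the hypoxia factor HIF1. PDK1 was listed at 11.6, 13.7 and 13.4 TPM in resistant decitabine libraries, against 80.6, 84.3 and 55.0 TPM in parental vehicle libraries. It fell by 2.39 ± 0.21 on the log2 scale (adjusted p = 0.00295), and the call held under every alternative that tested it. Resistant vehicle had 82.0, 57.1 and 50.4 TPM, overlapping parental vehicle, and parental decitabine replicates 1 and 2 had 22.0 and 23.4 TPM. GAPDH, of glycolysis and with 14.2% of its exon length opposite AC006064.4, had 6586, 7711 and 5912 TPM in resistant decitabine and 13528, 18292 and 20475 TPM in parental vehicle libraries (-1.36 ± 0.18, adjusted p = 0.00991), with resistant vehicle between, at 9787, 10915 and 11057 TPM. Of 16 genes of glycolysis and hypoxia tested, PDK1 and GAPDH were lower and none higher, beside 2.99% lower and 10.6% higher over all features, with a median of -0.46. DDIT4, a stress-induced inhibitor of mTORC1 with 41.2% of its exon length opposite DDIT4-AS1, had 27.5, 17.9 and 19.4 TPM in resistant decitabine and 101, 110 and 135 TPM in parental vehicle libraries (-2.37 ± 0.21, adjusted p = 0.00317). DDIT4 was the only called gene of 9 tested in the list of protein folding and integrated stress, beside 13.6% called over all features. Its resistant vehicle libraries were at 98.2, 74.4 and 48.5 TPM, all above the treated ones.

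Other lists held 1 called gene or none, beside 13.6% called over all features. RPTOR, of mTORC1, was the only called gene of 7 tested of the PI3K, AKT and mTOR pathway, with 44.2, 45.2 and 43.6 TPM in resistant decitabine and 67.7, 63.0 and 61.2 TPM in parental vehicle libraries (adjusted p = 0.0351, 0.012 to 0.11). CDKN2C, a CDK4 and CDK6 inhibitor, was the only one of 12 cell-cycle genes, with 58.1, 60.2 and 57.9 TPM in resistant decitabine and 90.0, 103 and 127 TPM in parental vehicle libraries (adjusted p = 0.0228, 0.00847 to 0.0712). Both were lower, and both calls were lost with no filter. RPTOR was also lost without any 1 library, and CDKN2C without any 1 resistant decitabine library or parental vehicle 2. Of 25 cytosolic ribosomal protein genes, RPL7 was higher, at 2.01, 1.72 and 2.29 TPM in resistant decitabine and 0 in parental vehicle libraries. Its call (limma, adjusted p = 0.0239, 0.0176 to 0.0889) was lost with no filter, under quantile scaling and without any 1 parental vehicle library. In limma none passed of 7 genes of the MYC list, 13 of cholesterol synthesis, 12 of DNA damage and repair or 2 peroxiredoxins, with 2, 1, 1 and 0 at an unadjusted p under 0.05. Of 7 tested members of the list of p53 targets, TNFRSF10B alone passed, and FAS, called above, is not on that list.

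The largest falls also differed in where the resistant vehicle cells stood. GRINA, a membrane protein gene with 12.8% of its exon length opposite PARP10, was at 0 in the 3 resistant decitabine libraries, against 274, 280 and 327 TPM in parental vehicle libraries (adjusted p = 4.89e-05). Resistant vehicle was mixed, at 138, 0 and 208 TPM, so that 1 untreated resistant library also lacked it. WASHC5, a subunit of the WASH complex of endosomes, was at 0 in resistant decitabine and at 48.6, 29.8 and 47.1 TPM in parental vehicle libraries (adjusted p = 0.000626), with 0, 35.5 and 27.0 TPM in resistant vehicle. GDE1, a phosphodiesterase gene with 28.9% of its exon length opposite other features, was at 0 in resistant decitabine and at 10.8, 12.7 and 14.3 TPM in parental vehicle libraries (adjusted p = 0.00125), with 11.2, 0 and 12.7 TPM in resistant vehicle. These 3 genes shared a layout, each with 1 resistant vehicle library at 0, and their values in parental decitabine replicates 1 and 2 were 12.6 TPM or more. CDR1, which lies wholly opposite LINC00632 on chromosome X, was at 0, 1.17 and 0 TPM in resistant decitabine libraries, against 48.5, 68.9 and 32.6 TPM in parental vehicle libraries (-5.24 ± 0.44, adjusted p = 0.00268). CDR1 was low in resistant vehicle too, at 1.12, 1.17 and 0.482 TPM, and at 62.0 and 59.0 TPM in parental decitabine replicates 1 and 2, so it was low in both resistant groups. KDM2B-DT, the divergent transcript of the histone demethylase gene KDM2B and with 41.2% of its exon length opposite it, was at 0 in resistant decitabine and at 10.02, 9.83 and 19.2 TPM in parental vehicle libraries (adjusted p = 0.00342). Its resistant vehicle libraries were at 7.43, 6.52 and 7.36 TPM, each below every parental vehicle library, and parental decitabine replicates 1 and 2 were at 0 and 4.33 TPM.

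Since much of the signal lies opposite genes, those lying opposite 1 gene over 80% or more of the exon length were counted apart, a choice made after the data were seen. Of 427 with a mean of at least 5 TPM, 124 (29%) were called, 85 higher and 39 lower. Of all 4954 features of that level, 851 (17.2%) were called, 647 (13.1%) higher and 204 (4.12%) lower. One of them lies opposite MDM2, the p53 ubiquitin ligase and itself a p53 target. AC025423.4, opposite MDM2 at chr12:68841288-68843237 (GRCh38), was at 1317, 1450 and 1430 TPM in resistant decitabine libraries, against 260, 237 and 319 TPM in parental vehicle libraries. That is a log2 difference of 2.37 ± 0.13 (adjusted p = 0.0007), and the call held under every alternative that tested it. The order was stepwise, with resistant vehicle at 700, 677 and 853 TPM, between the groups without overlap, and parental decitabine replicates 1 and 2 at 608 and 691 TPM.

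DDIT4-AS1, wholly opposite DDIT4, had 279, 258 and 236 TPM in resistant decitabine and 1573, 1659 and 1985 TPM in parental vehicle libraries (-2.75 ± 0.12, adjusted p = 0.00059). It thus differed in the same direction as DDIT4 itself. AC006064.4, opposite GAPDH, had 87871, 105641 and 81929 TPM in resistant decitabine and 184585, 190847 and 205205 TPM in parental vehicle libraries (-1.08 ± 0.11, adjusted p = 0.00414). Its call was lost under quantile scaling (-0.35, adjusted p = 0.502, from 0.00111 over the alternatives). AL136131.3, opposite the angiogenic factor gene VEGFA, had 26.1, 6.25 and 24.7 TPM in resistant decitabine and 188, 101 and 180 TPM in parental vehicle libraries (-3.14 ± 0.58, adjusted p = 0.0232, 0.0114 to 0.0787), and was lost without any 1 of the parental vehicle libraries. Of 4 tested features opposite genes of glycolysis and hypoxia, these 2 were lower and none higher, with a median of -1.49. Of all 385 features of at least 5 TPM that lie so opposite 1 protein-coding gene, 38 were lower and 76 higher.

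**Figure D4:**
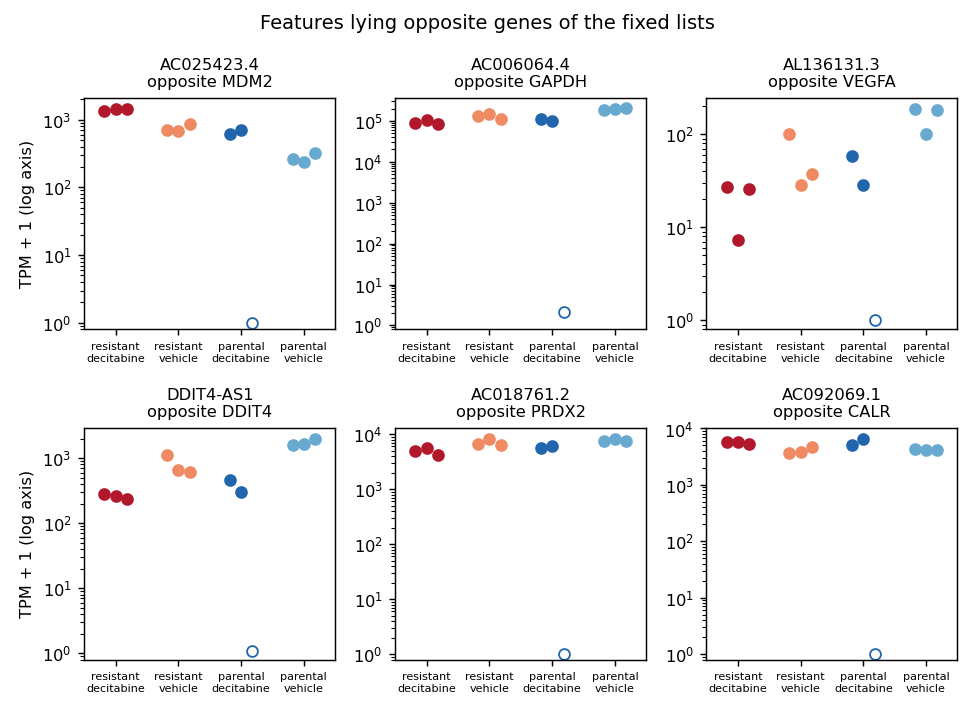
TPM + 1 (y axis, log scale) of 6 features that lie wholly opposite a gene, in the 12 libraries, by group from left to right: resistant decitabine, resistant vehicle, parental decitabine, parental vehicle. Each point is a library, and the open point is parental decitabine replicate 3, at or near 0 TPM in all 6 panels. The feature opposite MDM2 is highest and that opposite DDIT4 lowest in resistant decitabine.

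Smaller differences were seen opposite other genes. AC018761.2, opposite the peroxiredoxin gene PRDX2, had 5042, 5605 and 4227 TPM in resistant decitabine and 7444, 8043 and 7542 TPM in parental vehicle libraries. Its call (-0.64 ± 0.11, limma, adjusted p = 0.0211, 0.00866 to 0.0756) was lost without resistant decitabine a or any 1 of the parental vehicle libraries. No filter and quantile scaling also ended it. AC092069.1, opposite CALR, had 5656, 5739 and 5273 TPM in resistant decitabine and 4263, 4135 and 4127 TPM in parental vehicle libraries (0.41 ± 0.06, adjusted p = 0.0127, 0.0109 to 0.261). It was lost with no filter, without parental vehicle 2 and under median-ratio scaling, where the difference was 0.13. AC027277.1, opposite the membrane protein gene EMP2, was at 29.8, 32.0 and 19.4 TPM in resistant decitabine libraries and at 0 in all 6 vehicle libraries (adjusted p = 0.000824). AC013356.4, opposite DISP2, a Dispatched family gene, had 47.2, 50.2 and 34.0 TPM in resistant decitabine and 2.99, 4.93 and 4.97 TPM in parental vehicle libraries (3.09 ± 0.26, adjusted p = 0.00268). Its resistant vehicle values, 3.81, 8.37 and 5.86 TPM, overlapped the parental vehicle values.

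The resistant vehicle libraries entered neither group, and their place between the groups is given as a description. On a scale with the parental vehicle mean at 0 and the resistant decitabine mean at 1, their median position was 0.399 over the 918 higher features and 0.494 over the 259 lower ones. Over all tested features it was 0.409. All 3 resistant vehicle libraries lay nearer parental vehicle for 332 (36.2%) of the higher features and nearer resistant decitabine for 206 (22.4%). For the lower features the counts were 75 (28.96%) and 70 (27.03%). Over all tested features the shares were 27.2% and 21.8%, with no test of the difference from these. For 494 (42.0%) of the called features the 3 libraries were split, so that they lie at neither end as a group. FAS and SYCP3, at 0.07 and 0.02, are examples near the parental vehicle end, and RINT1 and CDR1, at 1.01 and 0.89, near the resistant decitabine end. UTS2B, the urotensin 2B gene with 12.3% of its exon length opposite CCDC50, was at 0 in all 6 resistant libraries and at 6.14, 2.95 and 4.19 TPM in parental vehicle libraries (adjusted p = 0.0118).

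Parental decitabine replicates 1 and 2, also outside both groups, had a median position of 0.522 over the higher and 0.494 over the lower features, and 0.542 over all. Both lay nearer resistant decitabine for 356 (38.8%) of the higher features and nearer parental vehicle for 270 (29.4%), against 33.8% and 29.5% over all features tested. For the lower features the counts were 92 and 94. Replicate 3 gave a median position of 0 over the called features.

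**Figure D5:**
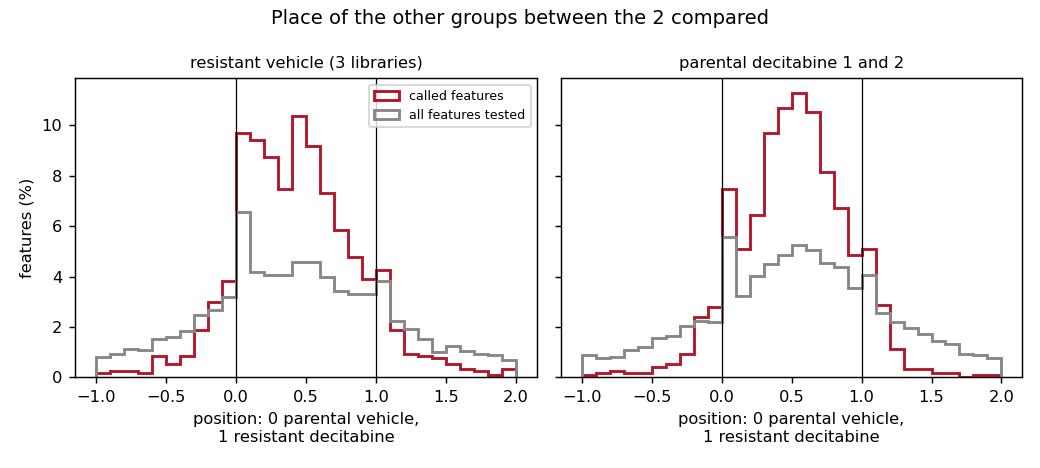
Share of features (y axis, percent) by the mean position of the resistant vehicle libraries (left) and of parental decitabine replicates 1 and 2 (right), with the parental vehicle mean at 0 and the resistant decitabine mean at 1 (x axis, from -1 to 2). Red lines are the 1177 called features and grey lines all 8663 tested, each as a share of its own number, and features beyond the axis are not drawn. The red lines are highest between 0 and 1.

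A direct view of a return to baseline comes from the 217 features (2.8% of 7761) that differed between resistant vehicle and parental vehicle, 134 higher and 83 lower. The treated resistant libraries entered neither side of that comparison. All 3 lay nearer parental vehicle for 46 (21.2%) of the 217 and nearer resistant vehicle for 106 (48.8%), and they were split for 65. Over all 7761 features tested the shares were 22.3% and 33.3%. With parental vehicle at 0 and resistant vehicle at 1, the median position was 0.689 over the 217 and 0.718 over all features. It was 0.751 over the features that resistant cells had higher and 0.613 over those they had lower. In 29 features all 3 treated libraries lay beyond the resistant vehicle mean, and in 11 beyond the parental vehicle mean. This placement was chosen after the data were seen.

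Of the 46 features for which all 3 treated libraries lay nearer parental vehicle, untreated resistant cells had 25 lower and 21 higher. Their share, 21.2%, was near the 22.3% over all features tested, and nearer does not mean at the parental level. Those named here, among features with a gene symbol whose vehicle groups did not overlap, had the largest differences between the vehicle groups. ACAT1, which encodes a mitochondrial thiolase of ketone and isoleucine breakdown, was listed at 61.6, 74.2 and 56.9 TPM in resistant decitabine libraries, against 59.5, 88.0 and 91.1 TPM in parental vehicle libraries. Untreated resistant cells had 0, 3.61 and 0 TPM, and the position of the treated libraries was 0.05. PPP1R1A, a phosphatase inhibitor gene with 11.1% of its exon length opposite PDE1B, had 4.70, 8.63 and 11.2 TPM in resistant decitabine and 6.26, 5.19 and 4.47 TPM in parental vehicle libraries, and was at 0 in resistant vehicle. SLC24A5, a cation exchanger gene with 32.9% of its exon length opposite MYEF2, had 13.8, 14.9 and 21.1 TPM in resistant decitabine and 12.5, 14.2 and 18.3 TPM in parental vehicle libraries, against 0.504, 1.84 and 3.22 TPM in resistant vehicle. For these 3 genes resistant decitabine and parental vehicle overlapped. STK24, a kinase gene with 63.5% of its exon length opposite other genes, was at 5.66, 5.71 and 6.11 TPM in resistant decitabine and 19.2, 3.64 and 11.4 TPM in parental vehicle libraries, and at 0 in resistant vehicle. MAFF, a small MAF transcription factor gene, had 2.07, 3.04 and 2.21 TPM in resistant decitabine and 4.22, 8.17 and 5.91 TPM in parental vehicle libraries, against 0, 0.147 and 0.149 TPM in resistant vehicle. Its treated libraries lay below every parental vehicle library, at a position of 0.383. PBXIP1, which encodes a partner of PBX transcription factors, was the one of these that resistant vehicle cells had higher, at 26.2, 24.2 and 29.9 TPM. It had 9.07, 12.4 and 14.3 TPM in resistant decitabine and 6.26, 6.86 and 10.1 TPM in parental vehicle libraries, a position of 0.338. The adjusted p of resistant decitabine against parental vehicle was 0.411 for ACAT1, 0.404 for PPP1R1A, 0.752 for SLC24A5, 0.483 for STK24, 0.0881 for MAFF (past the threshold with quantile scaling, at 0.035, and over features above 0 in every library, and up to 0.223 otherwise) and 0.224 for PBXIP1, which does not show that the levels were equal.

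Other features kept the level of the resistant line. PCDH9-AS1, an antisense RNA with 27.1% of its exon length opposite the protocadherin gene PCDH9, was at 17.2, 17.8 and 22.0 TPM in resistant decitabine libraries and at 0 in parental vehicle libraries (adjusted p = 0.000783). Its resistant vehicle libraries had 27.1, 15.8 and 26.6 TPM, overlapping the treated ones, and the position was 0.947. DAZAP2, which encodes a small proline-rich protein, had 11.6, 22.3 and 13.3 TPM in resistant decitabine and 0, 2.24 and 0 TPM in parental vehicle libraries, against 12.9, 21.3 and 18.3 TPM in resistant vehicle. The difference of DAZAP2 from parental vehicle was 3.45 ± 0.56 (adjusted p = 0.0167, 0.00475 to 0.0558), and it was lost without resistant decitabine b or c or parental vehicle 1 or 3. RINT1 and CDR1, described above, also belong here. H4C9 and AC025423.4 lay beyond the resistant vehicle level, at 2.32 and 1.63 on the same scale, farther from parental vehicle than the untreated resistant cells were.

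The other pairs of groups, which share libraries with the comparison above, gave fewer calls on the same test. Resistant decitabine against resistant vehicle had 308 of 8579 features called (3.59%), 243 higher and 65 lower. Parental decitabine replicates 1 and 2 against parental vehicle had 151 of 8122 (1.86%), 112 higher and 39 lower. For FAS, the log2 difference was 2.73 ± 0.28 between resistant decitabine and resistant vehicle (adjusted p = 0.0127) and 0.20 ± 0.29 between resistant vehicle and parental vehicle (adjusted p = 0.741). For BCL2, it was 1.01 ± 0.13 between resistant decitabine and resistant vehicle (adjusted p = 0.0247) and -0.53 ± 0.12 between resistant vehicle and parental vehicle (adjusted p = 0.0908). For H4C9, it was 2.06 ± 0.17 between resistant decitabine and resistant vehicle (adjusted p = 0.00638) and 1.56 ± 0.18 between resistant vehicle and parental vehicle (adjusted p = 0.0219). The differences of H4C9 had the same sign and those of BCL2 opposite signs, of which that between the vehicle groups did not pass. Both differences of a gene share the resistant vehicle libraries, so their signs are not independent.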

How the data were processed

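RNA of 12 libraries, 3 per group, was sequenced from stranded libraries of polyadenylated RNA, per the labels' protocols. The authors' tools were HISAT2, StringTie and DESeq2 and their build was hg38, per the submitters' processing notes, which give no version, order or strand setting. The authors deposited 1 table per line, of values read as TPM, since each library sums to 1000000. Rows were matched by gene name, and the 59490 names that occur once were kept. Parental columns were matched to samples by title. Resistant columns match only a group and are lettered a, b and c. Positions, classes and overlap on the other strand come from GENCODE 29 (GRCh38), and promoters from RefSeq (GRCh38.p14).

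The groups were compared with limma 3.58.1 (trend, R 4.3.3) on log2(TPM + 1), for features averaging 1 TPM or more in the 6 libraries, and adjusted by Benjamini-Hochberg. On simulated data of 8663 features the test recovered 36%, 62%, 86% and 92% of changes of log2 size 1, 2, 3 and 4. Of 147 calls, 9 were false. The changes were planted only in features above the median level, with normal noise, so these rates do not cover low features. Fold changes on this scale understate those of low features. Members and gene lists were chosen with earlier results of these data known. Named genes are the 8 largest rises and falls and the 4 of smallest adjusted p among called symbols, up to 3 called members of each list, core genes of apoptosis and methylation, and the 3 nearest each end of the placement; not all are printed. Features opposite genes, the placement between the vehicle groups, its examples and ABALON were added after the data were seen. Alternatives were other scalings, filters and pseudocounts, a pooled spread over 9 or 11 libraries, and leaving out each library.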

Additional observations from a re-analysis of the deposited data

How the results depend on the processing

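The count of 1177 called features (918 higher, 259 lower) was 568 (434 and 134) without a filter on low values and 292 (227 and 65) at an adjusted p under 0.01. Quantile scaling gave 497 higher and 474 lower, and median-ratio scaling 616 and 482. Leaving out 1 library gave 540 to 797 called features, 429 to 590 higher and 111 to 216 lower. A pseudocount of 0.1, a mean of at least 5 TPM, 9 or 11 libraries in the fit and features above 0 in every fitted library kept the count within 1.5 times. Of 72 called features examined by name, 36 kept their call under every alternative in which they were tested, 32 lost it in 1 or more fits without a library, and none turned direction. Of those not called, the difference of PMAIP1, -0.15, ranged from -0.80 to 0.23 without 1 library, positive without resistant decitabine a (0.23) and c (0.11). That of SLC24A5, 0.13, was -0.20 with quantile scaling and -0.13 with median-ratio scaling, and ranged from -0.046 to 0.27 without 1 library, the lowest without resistant decitabine c. The median position of resistant vehicle, 0.419 over the called features, was 0.410 to 0.419 without 1 of its libraries and 0.466 over features with no library at 0. That of parental decitabine replicates 1 and 2, 0.520, was 0.521 to 0.559 with 1 of them alone. The position of treated resistant cells between the vehicle groups, 0.689, stayed between 0.668 and 0.717 under alternatives added after the data were seen. The distance from resistant decitabine to parental vehicle, 1.63, was 2.77 with a pseudocount of 0.1 and 1.72 over features of at least 5 TPM, and exceeded that from resistant vehicle (2.60 and 1.66) in both, and with quantile scaling (1.61 against 1.52). The cause of these changes was not tested. No paired analysis was possible because the resistant columns carry no replicate number tied to a sample. The depth is unknown, so a value at 0 sets no limit.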

Other observations

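By annotated class, the called share of resistant decitabine against parental vehicle was 551 of 4756 protein-coding features (11.6%), 312 of 1798 antisense features (17.4%), 79 of 411 lincRNA features (19.2%) and 54 of 485 processed pseudogenes (11.1%), beside 13.6% over all. Of 21 mitochondrial tRNA features tested, which lie among the mitochondrial genes described above, 12 were higher and 1 was lower in resistant decitabine.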
